A study of Mus musculus with 6 samples.

Results

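Translation factors and tRNA synthetases are the proteins that start, extend and supply protein synthesis on the ribosome. They were followed in the mouse ovary over the first days after birth. The members were chosen by probe annotation, with earlier results of these data known. Every probe was taken whose name held translation initiation factor, translation elongation factor, translation termination factor, tRNA synthetase or poly A binding protein. This gave 66 of 8272 probes under 38 annotation names, and the brightest probe stood for each name. The 38 members were 18 initiation factors, 3 elongation factors, 2 poly A binding proteins and 15 tRNA synthetases, and no probe was named as a termination factor.

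Whole-ovary RNA of unmanipulated C57Bl/6J pups came from 3 ages. The reference was day 0 (less than 24 hours after birth), labelled with Cy3, and the later ages were day 2 and day 4, labelled with Cy5. Each age had 3 spotted cDNA arrays with different later RNAs and up to 4 repeat values per probe. Every value is a log2 ratio of the later day over day 0, so that -1 stands for 0.5 times the day 0 level. Array 3 of both ages had the same day 0 RNA. The arrays do not record how many animals gave each RNA. The series places the first assembly of follicles at day 2 and the start of their growth just after it, and asks which mRNAs change over that time.

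In textbook terms, an mRNA is first bound at its cap by initiation factor 4E together with the scaffold 4G and the RNA helicase 4A. Initiation factor 3 holds the small ribosomal subunit, and initiation factor 2 brings the first tRNA to it. The elongation factors then deliver each charged tRNA and move the ribosome along. The tRNA synthetases load each tRNA with its amino acid, and poly A binding proteins coat the tail of the mRNA. Growing oocytes make large stores of mRNA and ribosomes, and control of translation is a well-known feature of these cells.

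No member passed the test in any comparison (limma, Benjamini-Hochberg adjusted over all 8135 probes tested, adjusted p under 0.05). A probe was tested when at least 2 arrays of each age had a value, which held for 34 of the 38 members. Of all probes, 0.479% passed at day 4 against day 0 (39 probes, all higher), 0% at day 2 against day 0 and 0% at day 4 against day 2. The smallest adjusted p among members was 0.316 at day 4, 0.966 at day 2 and 1.00 for day 4 against day 2. The members' values at day 4 were nevertheless mostly below 0, in 26 of 34 members (76.5%) against 50.2% of all probes. Their median log2 ratio at day 4 was -0.33, and that of all probes was -0.00. Without day 4 array 3, the members' median was -0.17, over the 29 members still tested. These medians are a description of the members, with no test over them, and leaving out any 1 day 4 array left 0 of all probes past the threshold.

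**Figure D1:**
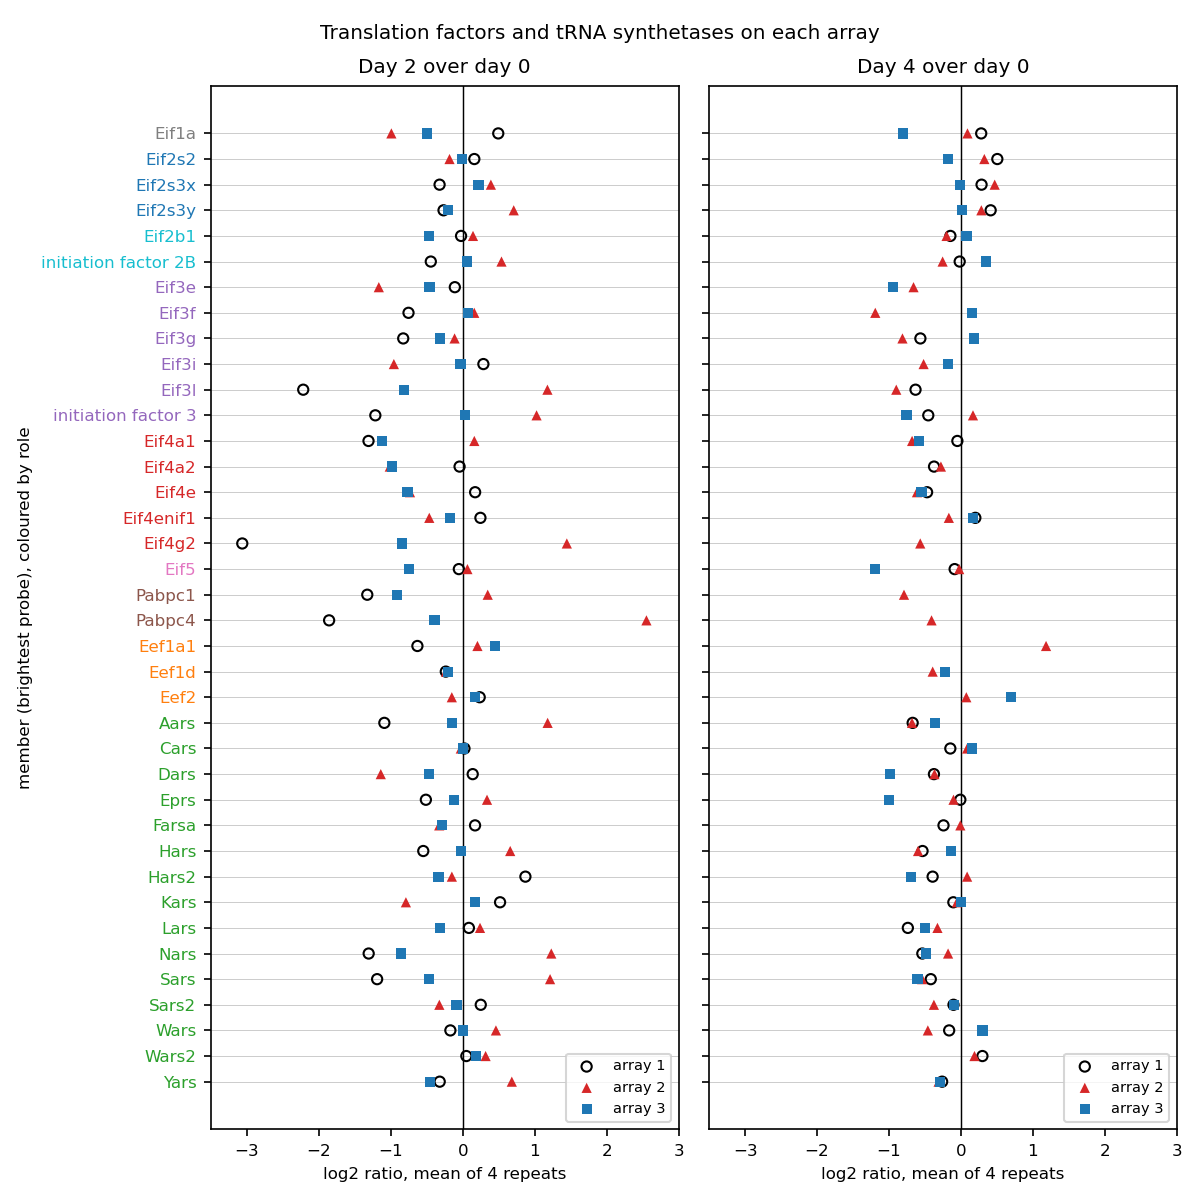
Log2 ratio to day 0 (x axis, mean of up to 4 repeats) of each of the 38 members (rows, coloured by role) on the 3 day 2 arrays (left) and the 3 day 4 arrays (right). Array 1 (open circles) and array 2 (triangles) of day 2 lie on opposite sides of 0 for 32 members, and the day 4 points lie mostly to the left of 0.

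The values missing at day 4 fell on some of the brightest members. Day 4 array 1 had no value for 9 members and 497 probes in all, and these probes had a median log2 intensity of 13.6 on the day 2 arrays, against 9.26 for the probes it measured. Day 4 array 3 had no value for 8 members, all among 2640 probes that carried a grid flag, which the headers do not define. The 4 members left with 1 day 4 value, and so without a test, were Eef1a1, Eif4g2, Pabpc1 and Pabpc4. The 9 members without a value on day 4 array 1 included all 3 elongation factors, both poly A binding proteins and 3 of the 6 initiation factor 3 members. 

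The sign of the day 2 values is open to doubt. Arrays 1 and 2 of day 2 carry the same dye orientation and conditions in their labels, yet ran opposite to each other, with a Pearson correlation of -0.68 over all 8272 probes and -0.76 over the 38 members. They had opposite signs for 32 of 38 members (84.2%), against 74.9% of all probes. In 7 members the 2 arrays lay on opposite sides of 0 with both values past 1, and these were Eif3l, a clone named only as initiation factor 3, Eif4g2, Pabpc4, Aars, Nars and Sars. The same held for 413 of all 8272 probes. For the members, the median gap between these 2 arrays was 0.97, and the same gap between day 4 arrays 1 and 2 was 0.18 over 29 members. Over all probes, day 2 array 1 as deposited correlated by 0.02 with day 2 array 3 (Pearson). With day 4 arrays 1 to 3 it correlated by 0.27, 0.18 and 0.02. For day 2 array 2 the same values were 0.23, and 0.11, 0.24 and 0.22. The Spearman correlations of day 2 array 1 with array 3 of day 2 and day 4 were -0.05 and -0.06. Whether either array has a turned sign, and which, cannot be read from the labels and was not tested. For this reason, fitted day 2 values are followed by those after a change of sign on array 1 or array 2.

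**Figure D2:**
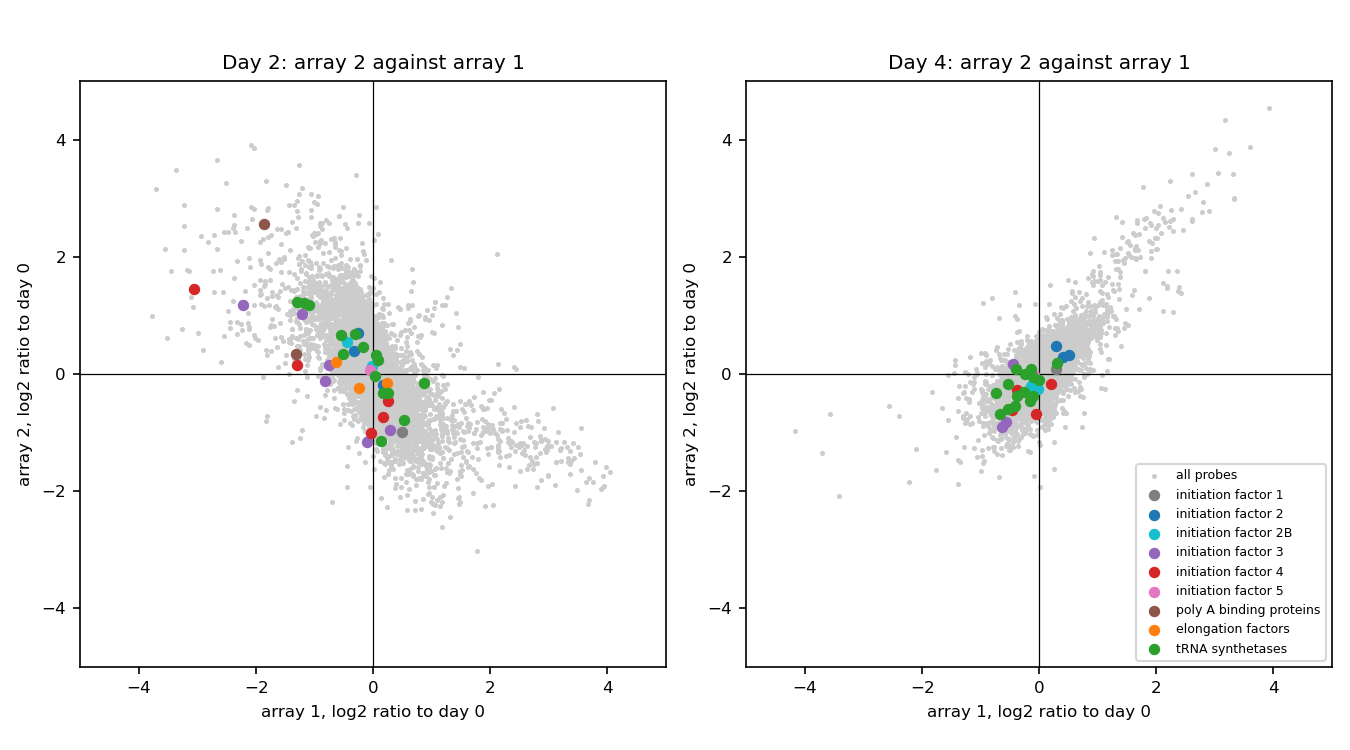
Log2 ratio on array 2 (y axis) against array 1 (x axis) at day 2 (left) and day 4 (right), for all probes (grey) and for the members (coloured by role). At day 2 the points run from upper left to lower right (Pearson r -0.76 over 38 members), and at day 4 from lower left to upper right (0.69 over 29 members).

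Initiation factor 4, the group that holds the cap-binding protein 4E and the helicases 4A, had 4 tested members. At day 4, 3 of them were below 0, with a median of -0.38, and none passed the test. At day 2 all 4 were below 0 as deposited, with a median of -0.56. With array 1 turned 3 were below 0, with a median of -0.43, and with array 2 turned 2 were, with a median of 0.02. Eif4e, the protein that binds the cap itself, gave 0.17, -0.73 and -0.77 on day 2 arrays 1 to 3 and -0.47, -0.61 and -0.55 on day 4 arrays 1 to 3. The 3 day 4 values lay close together and all below 0, while day 2 array 1 stood above 0. Its fitted log2 ratio was -0.54 ± 0.20 (SE) at day 4, a 1.46-fold lower level, with an unadjusted p of 0.0353 that did not hold after adjustment (limma, adjusted p = 0.481). At day 2 it was -0.44 ± 0.20, and -0.56 or 0.05 with the sign of array 1 or array 2 turned.

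Eif4a1 and Eif4a2 are closely related helicases that unwind the mRNA ahead of the ribosome. Eif4a1 gave -1.31, 0.16 and -1.13 at day 2 and -0.05, -0.68 and -0.58 at day 4. Its day 2 arrays 1 and 3 were low and array 2 was not, and its day 4 values were below 0 on all 3 arrays. The fitted value at day 2 was -0.76 ± 0.30 (limma, unadjusted p = 0.0464, adjusted p = 0.966), and 0.11 or -0.87 with the sign of array 1 or array 2 turned. At day 4 it was -0.44 ± 0.30 (adjusted p = 0.742). The 3 other clones of Eif4a1 gave -0.77, -0.74 and -0.64 at day 2 (0.12, 0.37 and 0.45 with array 1 turned, and -1.52, -1.52 and -1.37 with array 2 turned) and -0.36, -0.34 and -0.33 at day 4, and each stood above 1 on day 2 array 2, where the brightest clone gave 0.16.

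Eif4a2 gave -0.04, -1.01 and -0.99 at day 2, and -0.37 and -0.28 on day 4 arrays 1 and 2. All 5 values were below 0. The fitted value was -0.68 ± 0.23 at day 2 (limma, unadjusted p = 0.0291, adjusted p = 0.966), and -0.65 or -0.01 with the sign of array 1 or array 2 turned. At day 4 it was -0.33 ± 0.28. A second and much dimmer clone of Eif4a2 gave 0.10 ± 0.13 at day 2 (-0.03 or -0.10 with array 1 or array 2 turned) and -0.14 ± 0.13 at day 4. Eif4a1 and Eif4a2 resemble each other in sequence, and spotted cDNA clones can bind RNA of both, so that the 2 genes may not be measured apart.

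Eif4g2 is a relative of the scaffold 4G that lacks the part that binds the cap protein. It had the widest swing of the initiation factors, with -3.06, 1.45 and -0.85 on day 2 arrays 1 to 3 and -0.56 on day 4 array 2, the only day 4 array with a value. A second clone on the next position of the list gave -3.17, 1.78 and -0.81 at day 2 and -0.61 on day 4 array 2. Both clones thus gave the same pattern, and the SD over the 4 repeats on day 2 array 1 was 0.68 for the first and 0.12 for the second. The fifth member of the group, Eif4enif1, which carries 4E into the nucleus, had a fitted value of 0.07 ± 0.16 at day 4, and its 2 other clones gave 0.34 ± 0.14 and 0.24 ± 0.16.

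Of the 13 members given array by array here, 7 have a promoter entry in RefSeq (GRCm38.p6, 250 bases before to 50 after the listed start). The letters TGACG, the core of a cAMP response element, occur on either strand in Eif4a1, Eif4a2, Eif4e and Eif2b1 and not in the entries of Eef1a1, Eif2s2 and Eif5. The stretches of the 3 initiation factor 4 genes are shown because these 3 genes had an unadjusted p under 0.05 at day 2 or day 4 and have an entry. Each is written 5′ to 3′ on the gene's own strand, with the match, or its reverse complement CGTCA, in capitals. They lie at chr11:69672415-69672439 (minus strand), chr16:23107334-23107358 (plus strand) and chr3:138527191-138527215 (plus strand).
Eif4a1: tacaaagtaaCGTCAcgtcgagttg
Eif4a2: aagggcacgcTGACGcgcaggtagc
Eif4e: cggacacgtcCGTCAcgtgggcagg

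Among 24 members with a usable entry, 11 (45.8%) held TGACG on either strand, against 23.0% of 27025 genes. The full element TGACGTCA, which contains TGACG, was found in 1 of the 24, Eef2, and in 2.03% of all genes. The amino acid response element, searched as TGATGNAAN on both strands, was found in Aars, Yars and Eif2s3x, 3 of the 24 (12.5%), and in 4.50% of all genes. A start at C followed by 4 more pyrimidines, the form seen in many ribosomal protein genes, was found in Eif2s3x, Eif3f and Wars2, 3 of the 24, and in 3.01% of all genes. These are matches of letters within the entries, and the arrays hold no measure of binding.

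Initiation factor 3, a large complex that bridges the small subunit and the cap-binding factors, was below 0 at day 4 in all 6 members tested, with a median of -0.46 and a range from -0.80 to -0.35. Eif3e, annotated by its older name of subunit 6, was the brightest of them. It gave -0.11, -1.17 and -0.46 at day 2, and -0.66 and -0.94 on day 4 arrays 2 and 3. All 5 values were below 0. The fitted value at day 4 was -0.80 ± 0.28, a 1.74-fold lower level (limma, unadjusted p = 0.0339, adjusted p = 0.473). At day 2 it was -0.58 ± 0.23 (adjusted p = 0.966), and -0.51 or 0.20 with the sign of array 1 or array 2 turned.

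The other initiation factor 3 members did not reach an unadjusted p under 0.05. Eif3l gave -0.76 ± 0.77 at day 4 from -0.63 and -0.90 on arrays 1 and 2, and its large SE came with day 2 values of -2.22, 1.18 and -0.81. Eif3f gave -0.52 ± 0.40 at day 4 from -1.19 and 0.16, 2 arrays that lie on opposite sides of 0. Eif3g gave -0.40 ± 0.23, and -0.19 without day 4 array 2 or -0.69 without array 3. Its day 4 array 1 value of -0.56 had no SD over repeats and so came from 1 repeat. Eif3i gave -0.35 ± 0.32, and a second clone of Eif3i, nearly as bright, gave -0.55 ± 0.19 (limma, unadjusted p = 0.0273, adjusted p = 0.439). The day 4 array 1 value of that second clone, -0.77, also came from 1 repeat. The clone named only as initiation factor 3 gave -0.35 ± 0.42, and -0.14 without day 4 array 3. That name covered 6 probes without a subunit, whose day 4 means ran from -0.45 to 0.28, so that they need not be 1 gene.

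Initiation factor 2 and its exchange factor lay near or above 0 at day 4, and none of these members passed the test. Eif2s2, the beta subunit, gave 0.16, -0.18 and -0.01 at day 2 and 0.51, 0.33 and -0.18 at day 4. Day 4 arrays 1 and 2 were above 0 and array 3 was not. The fitted values were -0.01 ± 0.16 at day 2 (-0.12 or 0.11 with array 1 or array 2 turned) and 0.22 ± 0.16 at day 4, neither past the test. Its 2 other clones gave 0.53 ± 0.17 (limma, unadjusted p = 0.0274, adjusted p = 0.439) and 0.10 ± 0.16 at day 4. The gamma subunit was spotted as its X-linked and its Y-linked copy. Eif2s3x gave 0.25 ± 0.17 at day 4 and the clone annotated as Eif2s3y gave 0.24 ± 0.21. The Y-linked clone had a mean log2 intensity of 8.77 in this ovary RNA, against 9.66 for the X-linked clone. An XX ovary has no Y-linked copy, so that the value of this clone is not a measure of Eif2s3y mRNA. The 2 near-identical copies may not be measured apart by such probes, and the clone is counted here by its annotation alone.

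Eif2b1, the alpha subunit of the factor that recharges initiation factor 2 with GTP, gave -0.02, 0.14 and -0.47 at day 2 and -0.15, -0.20 and 0.08 at day 4. The values of both ages spread around 0, and the fitted values were -0.12 ± 0.15 at day 2 (-0.10 or -0.21 with array 1 or array 2 turned) and -0.09 ± 0.15 at day 4. A clone named only as initiation factor 2B gave 0.03 ± 0.21 at day 4, and -0.14 without day 4 array 3. Eif1a, which helps the small subunit to scan the mRNA, gave 0.49, -0.99 and -0.50 at day 2 and 0.28, 0.09 and -0.80 at day 4. On both ages array 3, which shares its day 0 RNA, was below 0. Its fitted day 2 value was -0.33 ± 0.33, and -0.66 or 0.33 with array 1 or array 2 turned. Its fitted day 4 value was -0.14 ± 0.33, and 0.19 without day 4 array 3.

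Eif5, which triggers the release of initiation factor 2 once the start codon is found, gave -0.05, 0.07 and -0.75 at day 2 and -0.09, -0.02 and -1.19 at day 4. Array 3 of both ages was low and the other 4 arrays lay near 0. The fitted day 2 value was -0.25 ± 0.28, and -0.21 or -0.29 with array 1 or array 2 turned. The fitted day 4 value was -0.43 ± 0.28 (limma, adjusted p = 0.714), and -0.06 without day 4 array 3. Of its other clones, 2 gave -0.51 ± 0.26 and -0.25 ± 0.26 at day 4, with the same low array 3 of -1.12 and -0.96, and the dimmest gave 0.07 ± 0.18.

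The elongation factors held the brightest spots of all members, and their day 4 values did not share a sign. Eef1a1, which delivers charged tRNA to the ribosome, gave -0.63, 0.20 and 0.45 at day 2 and 1.18 on day 4 array 2, the only day 4 array with a value. A second clone of Eef1a1, nearly as bright, gave 0.35, 0.66 and 0.50 at day 2, and 2.37 and 1.41 on day 4 arrays 1 and 2. Both day 4 values of that clone stood above all 3 of its day 2 values. Its fitted log2 ratio was 1.89 ± 0.26 at day 4, a 3.71-fold higher level (limma, unadjusted p = 0.0007, adjusted p = 0.0783), and so missed the threshold. At day 2 its value was 0.50 ± 0.21, and 0.27 or 0.06 with array 1 or array 2 turned. The 2 clones disagreed in sign on day 2 array 1, and Eef1a1 has close relatives and processed copies that such clones can also bind.

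Eef2, which moves the ribosome along the mRNA, gave 0.39 ± 0.21 at day 4 from 0.08 and 0.70 on arrays 2 and 3. A second clone of Eef2 was above 0 on all 6 arrays, from 0.32 to 0.98. Its fitted values were 0.60 ± 0.18 at day 2 (limma, unadjusted p = 0.0154, adjusted p = 0.966) and 0.55 ± 0.18 at day 4 (limma, unadjusted p = 0.0227, adjusted p = 0.407). With array 1 or array 2 turned, the day 2 value was 0.27 or 0.39. Eef1d, a part of the exchange factor that recharges Eef1a1, was below 0 on the 5 arrays with a value, from -0.39 to -0.20, with fitted values of -0.22 ± 0.11 at day 2 as deposited and -0.30 ± 0.13 at day 4. Its day 2 value was -0.07 with either array turned.

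Pabpc1, the main cytoplasmic poly A binding protein, gave -1.33, 0.35 and -0.91 at day 2 and -0.79 on day 4 array 2. A second clone gave -1.29, 0.60 and -0.88 at day 2 and -0.47 on day 4 array 2, the same order over the arrays. Pabpc4 gave -1.86, 2.55 and -0.39 at day 2 and -0.41 on day 4 array 2. A far dimmer second clone of Pabpc4 stayed between -0.10 and 0.34 on all 6 arrays. Neither gene had a test, and the gap of 4.41 between day 2 arrays 1 and 2 for Pabpc4 was close to the largest among the members, 4.51 for Eif4g2.

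The tRNA synthetases were mostly below 0 at day 4, and none passed the test. Of 15 members, 13 were below 0 at day 4, with a median of -0.33 and a range from -0.58 to 0.24. Of the 13 with a value on every day 4 array, 9 were below 0 on all 3, and none was above 0 on all 3. Over all members, 12 of 25 (48.0%) were below 0 on all 3 day 4 arrays and 1 was above 0 on all 3, against 20.2% and 24.1% of all 5270 probes with 3 values. Leaving out the mitochondrial forms Hars2, Sars2 and Wars2, the other 12 had a median of -0.38, and 11 of them were below 0.

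Lars, which loads leucine, had the smallest p of all members. It gave 0.09, 0.24 and -0.31 at day 2 and -0.74, -0.33 and -0.50 at day 4. All 3 day 4 values were below all 3 day 2 values. The fitted value was -0.52 ± 0.15 at day 4, a 1.43-fold lower level (limma, unadjusted p = 0.0128, adjusted p = 0.316). Day 4 against day 2 gave -0.52 ± 0.21 (limma, unadjusted p = 0.0470, adjusted p = 1.00). At day 2 it was 0.00 ± 0.15, and -0.05 or -0.16 with the sign of array 1 or array 2 turned, and the SD over its 4 repeats on day 2 array 1 was 0.90. With the sign of array 1 or array 2 turned, day 4 against day 2 was -0.47 or -0.36.

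Nars, which loads asparagine, was the brightest synthetase. It gave -1.31, 1.23 and -0.86 at day 2 and -0.54, -0.18 and -0.48 at day 4. The day 4 arrays were all below 0 and close together, and the day 2 arrays spanned 0. The fitted values were -0.31 ± 0.46 at day 2 and -0.40 ± 0.46 at day 4. Turning the sign of array 1 or of array 2 gave a day 2 value of 0.56 or -1.13. A second clone of Nars gave 0.01 ± 0.23 at day 4.

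Aars (alanine) and Sars (cytosolic serine) had the same form as Nars. At day 4 Aars gave -0.67, -0.68 and -0.35, and Sars gave -0.42, -0.54 and -0.60. Their fitted values were -0.57 ± 0.40 and -0.52 ± 0.42. Both had day 2 arrays 1 and 2 on opposite sides of 0, at -1.09 and 1.18 for Aars and -1.19 and 1.21 for Sars. A second clone of Sars gave -0.41 ± 0.48, and another, of lower intensity, gave 0.20 ± 0.14. Dars (aspartate) gave -0.58 ± 0.26, Hars (histidine) -0.42 ± 0.24, Yars (tyrosine) -0.29 ± 0.23 and Eprs (glutamate and proline) -0.37 ± 0.25 at day 4. Eprs gave -0.01 and -0.10 on day 4 arrays 1 and 2, so that its value rested on array 3, and it was -0.06 without that array. A dimmer clone of Eprs stood above 0, at 0.44 ± 0.23. Without array 3, Dars was -0.37.

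The rest of the synthetases lay near 0 at day 4. Kars (lysine) gave -0.05 ± 0.24, Farsa (phenylalanine) -0.12 ± 0.18, Wars (tryptophan) -0.11 ± 0.19 and Cars (cysteine) 0.03 ± 0.11. Wars was 0.07 without day 4 array 2, and Cars was -0.03 without day 4 array 3. The mitochondrial enzymes did not share a sign, with Hars2 at -0.33 ± 0.27 (-0.15 without day 4 array 3), Sars2 at -0.19 ± 0.14 and Wars2 at 0.24 ± 0.14.

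**Figure D3:**
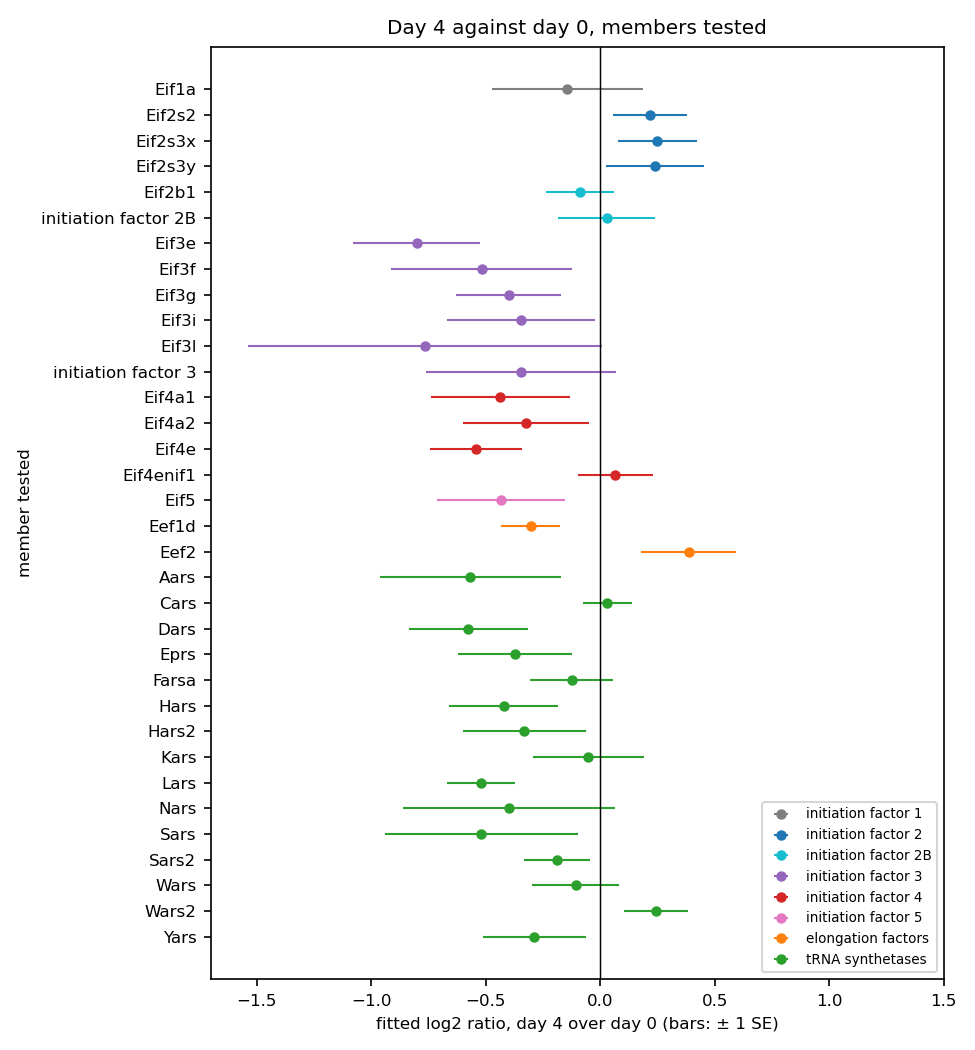
Fitted log2 ratio of day 4 over day 0 (x axis) for the 34 members tested (rows, coloured by role), with bars of 1 SE on each side from limma over all 6 arrays. Initiation factor 3 members lie between -0.80 and -0.35, initiation factor 2 members between 0.22 and 0.25, and 13 of 15 tRNA synthetases lie below 0, none past the adjusted threshold.

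Few members had an unadjusted p under 0.05. At day 4, 3 of 34 members had an unadjusted p under 0.05 and a value below 0 (Eif3e, Eif4e and Lars), against 4.29% of all probes, and 0 had one above 0, against 5.00%. At day 2 there were 2 below 0 (Eif4a1 and Eif4a2), against 1.12%, and 0 above 0, against 1.72%. With day 4 against day 2 there was 1 below 0 (Lars), against 0.676%, and 0 above 0, against 1.97%. These counts take only the brightest probe of each name. At day 4, dimmer clones of Eef1a1, Eef2 and Eif2s2 lay above 0 with an unadjusted p under 0.05, and one of Eif3i below 0. At day 2 as deposited, dimmer clones of Eef2, Eif4enif1 and Sars lay above 0 with one. With the mean of all probes of a name, 3 of 36 members had one below 0 at day 4 and 2 above 0. The median of the members was -0.11 at day 2 and -0.09 for day 4 against day 2, and 0.01 and -0.01 over all probes. With the sign of array 1 or array 2 turned, these member medians were -0.04 or -0.16 at day 2 and -0.14 or -0.03 for day 4 against day 2. Values below 0 were found in 25 of 34 members (73.5%) at day 2, against 47.6% of all probes, and in 21 (61.8%) for day 4 against day 2, against 53.0%. With array 1 or array 2 turned, 18 (52.9%) or 21 members lay below 0 at day 2, and 19 or 18 for day 4 against day 2. Without day 2 array 2, the median for day 4 against day 2 was 0.03, above 0, and that for day 2 was -0.23. The day 2 median was -0.07 without day 2 array 1 and -0.04 without day 2 array 3.

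Both ages share 1 estimate of the spread, and the opposing day 2 arrays thus widen the day 4 errors. With the day 4 arrays fitted alone, 11 of 34 members (32.4%) had an unadjusted p under 0.05 and a value below 0, against 10.1% of all probes, and 0 had one above 0, against 11.9%. These 11 were 7 tRNA synthetases (Aars, Sars, Lars, Dars, Nars, Hars and Yars) with Eif4e, Eif4a1, Eif3e and Eif3l. None passed after adjustment, and Eif4e had the smallest adjusted p (limma, adjusted p = 0.0672). These counts take only the brightest probe of each name. In the same fit, dimmer clones of Eef1a1, Eef2, Eif2s2, Eif4enif1 and Eprs lay above 0 with an unadjusted p under 0.05. Dimmer clones of Eif3i and Sars lay below 0 with one. After turning day 2 array 1, 5 members at day 2 had an unadjusted p under 0.05 and a value below 0 and 3 had one above 0, against 12.1% and 11.0% of all probes. With array 2 turned the counts were 9 and 1, against 7.47% and 6.29%.

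The day 4 values of the members also differed by intensity. The 21 members in the brightest 25% of all probes tested had a median of -0.40, with 19 below 0, while all 2034 probes of that intensity range had a median of -0.01. The 9 members in the next 25% had a median of -0.11, and all 2033 probes there -0.06 with 57.0% below 0, which the members were close to. The 3 members of the range below that had a median of 0.24, against 0.01 for its probes, and 1 member was in the dimmest range, at 0.03. Over the 34 members, the Spearman correlation of the day 4 value with intensity was -0.58, and over all 8135 probes it was -0.06. These points share the same arrays, and the correlation is given as a description.

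**Figure D4:**
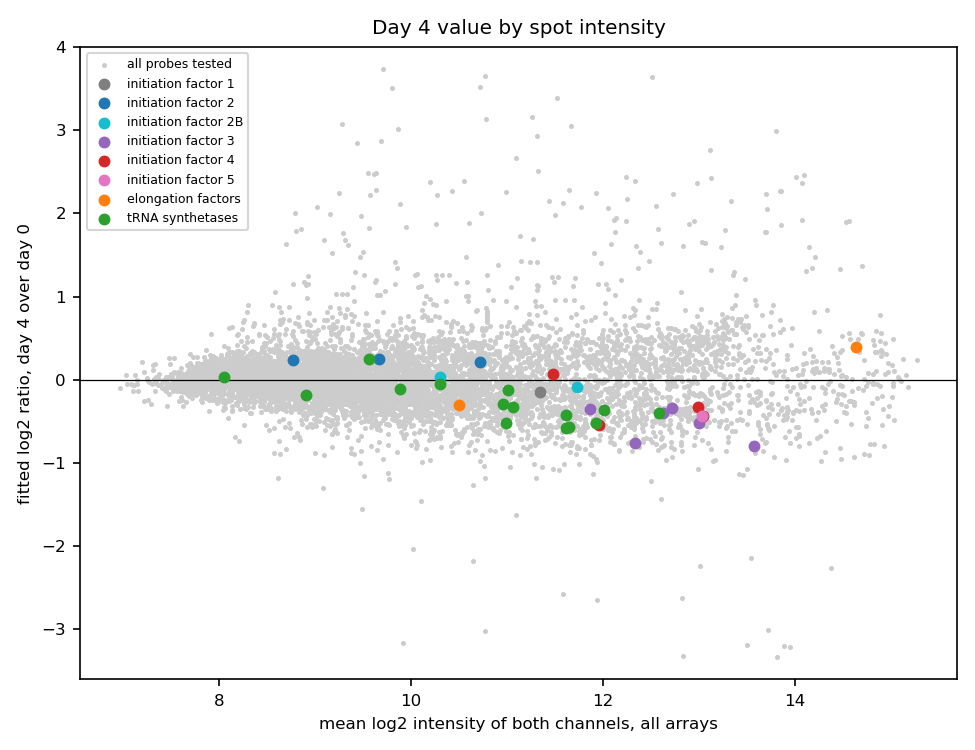
Fitted log2 ratio of day 4 over day 0 (y axis) against the mean log2 intensity of both channels (x axis) for all 8135 probes tested (grey) and the 34 members tested (coloured by role). Among the 21 members in the brightest 25% of all probes, 19 lie below 0, while the grey points of that intensity range centre near 0 (median -0.01).

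Of the 38 annotation names, 16 had more than 1 probe, and for 7 of these the probes lay on both sides of 0 at day 4. In Nars, Eprs, Sars, Eif5, Pabpc4 and Eif1a it was a dimmer probe that lay above 0 while the brightest lay below it. Averaging all probes of a name gave a day 4 median of -0.19 over the 36 members then tested, in place of -0.33 over 34. The clones of Eif4g2 lay within 0.04 of each other on day 4 array 2, and those of Eif4a1 within 0.10 at day 4.

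**Figure D5:**
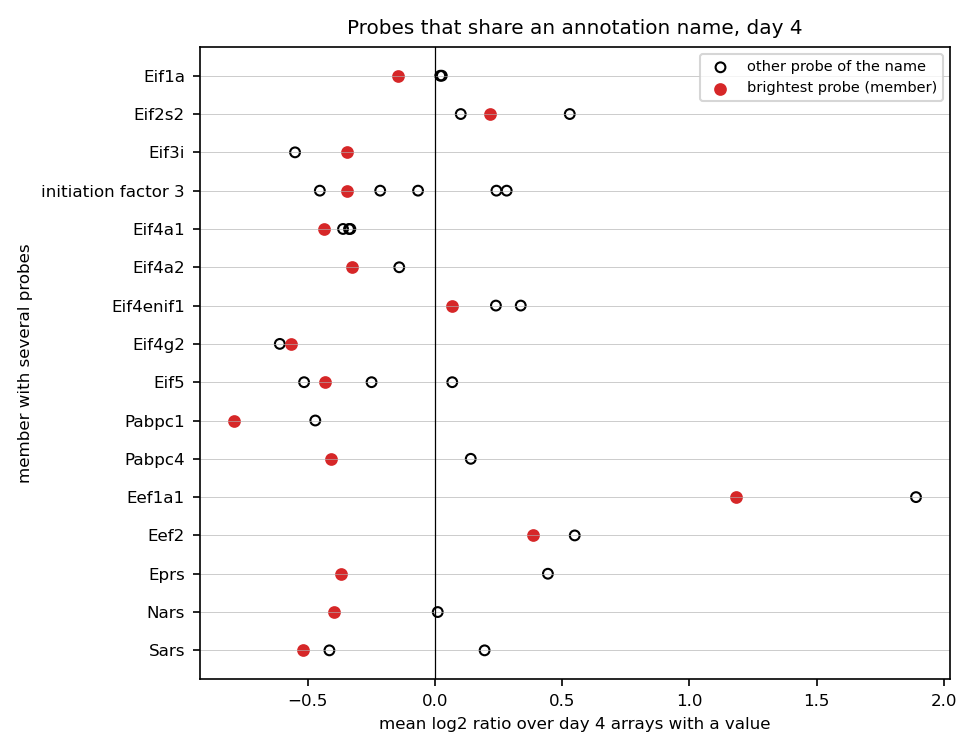
Mean log2 ratio over the day 4 arrays with a value (x axis) for each probe of the 16 annotation names with several probes (rows). Filled points are the brightest probe, which stands for the member, and open points are the others, which lie on both sides of 0 within 7 of the 16 names.

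Other genes of translation were taken by annotation, 25 names in all and each tested. They had a day 4 median of -0.10, with 10 above and 15 below 0, and 0 passed the test in any comparison. At day 4, 1 had an unadjusted p under 0.05 above 0, an EST weakly similar to the nuclear poly(A) binding protein (0.34 ± 0.10, limma, adjusted p = 0.341), and 1 below 0, the clone named as that protein itself (-0.87 ± 0.27, adjusted p = 0.406). The cytoplasmic polyadenylation element binding protein, which controls stored mRNA in oocytes, gave -0.38 ± 0.20 at day 2 (-0.43 or -0.16 with array 1 or array 2 turned) and 0.14 ± 0.20 at day 4.

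Markers of the ovary's cell types were read from the same RNA. The lists were matched by annotation text, so that a matched probe need not be specific to its cell type. Of 12 oocyte marker probes 11 were above 0 at day 4, with a median of 1.00. The 1 below 0 was 2'-5' oligoadenylate synthetase 1A at -0.42 ± 0.27. In this list 2 passed the test, H1foo and Oas1d at 2.39 ± 0.12 and 3.05 ± 0.30. All 5 erythroid markers were below 0, with a median of -0.88, and none passed, although 4 had an unadjusted p under 0.05. The 3 steroidogenic markers were all above 0, with a median of 0.52, and 0 had an unadjusted p under 0.05 (limma). Of the 8 smooth muscle and stroma markers tested, 5 were above and 3 below 0, from -0.54 to 0.71, with a median of 0.22. None of these passed the test, and 2 had an unadjusted p under 0.05, both above 0. The search for granulosa cell markers matched desert hedgehog (0.42 ± 0.11), follistatin-like 3 (0.09 ± 0.11) and a clone whose library name alone held a search term, so that these cells have no summary here. In whole-ovary RNA, fewer cells of a type and less RNA per cell cannot be told apart, and the part of these shifts in the members' values was not tested. All 6 arrays had the same dye orientation, so that a dye effect of a probe and a change against day 0 cannot be told apart either.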

How the data were processed

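Ovary RNA was measured on 6 spotted cDNA arrays in 2 colours. Per the file headers, the deposited values are log2 ratios of Cy5 (later day) over Cy3 (day 0), with 4 repeats per probe and a mean log2 intensity. The authors used R 1.7.1, per the submitters' processing notes, while no source used here gives their background correction or normalization. The headers do not define the flags deposited beside the values, and flagged values were kept. The deposited value table equals the authors' mean per probe.

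The repeats with a value, up to 4, were averaged per probe and array. One mean per age was fitted to all 6 arrays with limma 3.58.1 in R 4.3.3, for probes with at least 2 values per age, with moderated variances and 2-sided p-values adjusted by Benjamini-Hochberg over all probes. The ± values are SEs of this fit. The number of arrays limits the precision, and the median SE was 0.17 at day 2, 0.19 at day 4 and 0.26 for day 4 against day 2. The labels call the 3 arrays of an age biological replicates. On simulated data for day 4 against day 0, with 200 of 8135 probes changed, the code recovered 39% at a log2 change of 1 with 6 false calls, and 78% at 2 with 11.

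The members and lists were chosen with earlier results of these data known. Given array by array were members past the adjusted threshold, members with an unadjusted p under 0.05, and the brightest of each role, which made 13. Eif3l, Aars, Sars and other values shown beside them were named after their values were seen. Symbols were matched by hand from the annotation for 36 members, with no placing of clones on the genome.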

Additional observations from a re-analysis of the deposited data

How the results depend on the processing

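No member passed the adjusted threshold under any alternative run. The count of all probes that passed at day 4 against day 0 (39) was 96 with scale normalization, 125 with an intensity trend in the variances, 166 with the day 4 arrays alone, 0 with array 3 of both ages left out, 0 with day 2 array 2 turned in sign, and from 0 to 71 with each array left out in turn, the 0 without any 1 of the day 4 arrays. For day 4 against day 2 it was 1 with the intensity trend, in place of 0. The members' day 4 median of -0.33 was -0.17 without array 3 of both ages, -0.19 with the mean of all probes of a name, and from -0.33 to -0.17 with each array left out in turn. The members tested were 34 in the main fit, and 30, 25 and 29 without day 4 array 1, 2 and 3. They were 29 without array 3 of both ages and 36 with the mean of all probes of a name. The members' medians of -0.11 at day 2 and -0.09 for day 4 against day 2 moved by less than the SD between arrays, which is wide: they ran from -0.23 to -0.04 and from -0.13 to 0.03 with each array left out in turn, the 0.03 without day 2 array 2, and the day 2 median was -0.01 without array 3 of both ages. Of the 10 members given array by array and tested, 1 changed sign at day 4 under any alternative (Eif1a, without day 4 array 3), 9 at day 2 and 8 for day 4 against day 2. Without the runs that turned a sign, 5 changed at day 2 and 6 for day 4 against day 2. A fitted day 4 value is the mean of the day 4 arrays, so that leaving out or turning a day 2 array could not change its sign. Same-numbered arrays of the 2 ages correlated by 0.37, 0.05 and 0.51 in their deviations, and the main fit did not pair them. For array 3, which shares its day 0 RNA, the log2 ratios of both ages correlated by 0.77 over 5630 probes (Pearson). The main SEs and p-values of day 4 against day 2 take no account of this shared RNA. With the replicate block, day 4 against day 2 gave 0 probes and 0 members past the threshold and a member median of -0.07. The 3 arrays per age limit what can be called, and day 4 rests on 1 array for 4 bright members.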
